A study of Mus musculus with 9 samples.

Results

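The variable segments of the T cell receptor were followed through RNA sequencing of mouse CD4+ T cells before and after activation. A gene was included when the GENCODE M21 annotation of the mouse genome build GRCm38 gives it the type of a T cell receptor V segment and when it held at least 10 counts summed over the 9 libraries, so the members were chosen by their total counts. Of the 144 V segment genes among the 47937 genes of the count table, 94 met this rule. They were 66 Trav segments of the alpha chain on chromosome 14, 22 Trbv segments of the beta chain on chromosome 6, 3 Trdv segments of the delta chain on chromosome 14, 2 gamma chain segments on chromosome 13, and B230359F08Rik, a V segment gene on chromosome 14 that carries no segment name. Every one of them is annotated with 2 exons.

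The cells came from spleens of C57BL/6 mice and were isolated on magnetic beads as CD4+ cells. Resting cells formed the first group. The Th0_Ctrl group was activated with antibodies to CD3 and CD28 bound to the plate after 15 min with the solvent DMSO, and the Th0_TEPP group likewise after 15 min with TEPP-46, an activator of the glycolytic enzyme pyruvate kinase M2, in a range of 50 to 100 µM given for the treatment as a whole. Each group holds 3 libraries, numbered 1, 4 and 5 in the labels, and values are given below in that order. Whether libraries of a group came from separate animals is not said in the labels, so the spread behind each p-value is that between libraries and may be technical.

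The receptor of most CD4+ T cells is a pair of an alpha and a beta chain. Each chain gene is assembled in the thymus by joining one V segment to a joining segment, with a diversity segment between them in the beta chain, and the assembled unit is spliced to a constant segment. A clone therefore keeps its V segments, and the share of a segment among the transcripts of a locus in a large population follows how many cells carry it and how much receptor RNA each cell holds. The mouse Trav locus has been duplicated, and the letters d and n in a segment name mark the copies.

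The first 6 sequences come from 6 of the 10 beta chain segments whose shares did not overlap between Resting and Th0_Ctrl libraries. They are the last 60 bases of their transcripts, taken from the GENCODE M21 transcripts and printed 5′ to 3′, with capitals for the cysteine codon that precedes the junction. Trbv16, Trbv13-2 and Trbv13-3 had lower shares of the Trbv counts in Th0_Ctrl than in Resting libraries, and Trbv3, Trbv31 and Trbv23 higher shares. Of these 6 differences, only that of Trbv16 passed the edgeR test of shares given below. The 6 segments were chosen for display after these values were seen.
Trbv16: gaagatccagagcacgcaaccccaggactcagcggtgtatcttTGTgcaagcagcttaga
Trbv13-2: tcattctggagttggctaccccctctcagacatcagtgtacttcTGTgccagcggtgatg
Trbv13-3: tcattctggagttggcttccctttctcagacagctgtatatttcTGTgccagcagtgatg
Trbv3: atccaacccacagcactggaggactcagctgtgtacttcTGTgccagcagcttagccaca
Trbv31: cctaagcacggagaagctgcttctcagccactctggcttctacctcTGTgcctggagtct
Trbv23: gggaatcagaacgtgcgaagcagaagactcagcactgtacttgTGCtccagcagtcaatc

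The codon was located as the last match of TACNNNTGT, TATNNNTGT, TACNNNTGC or TATNNNTGC on the sense strand, and 142 of the 144 V segment transcripts (98.6%) hold such a match in this window. The exons and intron of Trbv16 span chr6:41151740-41152230 and those of Trbv13-2 span chr6:41121396-41121832, both on the plus strand. Trbv31 lies at chr6:41557691-41558452 on the minus strand, the only Trbv segment in that orientation, at the other end of the locus. Over their last 280 bases, Trbv13-2 and Trbv13-3 were identical at 91.4% of positions.

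The next 5 sequences are the same window of Trav14-1 and of the 4 Trav segments with the highest mean shares, all of the Trav14 family. They are shown because their copies differ by few bases, which sets how well a read can be given to a segment. Capitals mark the bases that differ from Trav14d-3-dv8.
Trav14d-3-dv8: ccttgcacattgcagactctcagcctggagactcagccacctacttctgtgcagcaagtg
Trav14n-3: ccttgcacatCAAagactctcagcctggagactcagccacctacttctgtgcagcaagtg
Trav14-3: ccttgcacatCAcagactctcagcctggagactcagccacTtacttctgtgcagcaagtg
Trav14-2: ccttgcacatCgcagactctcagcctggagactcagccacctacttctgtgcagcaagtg
Trav14-1: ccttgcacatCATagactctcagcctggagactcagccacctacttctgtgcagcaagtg

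These windows differed from that of Trav14d-3-dv8 by between 1 and 3 bases, and over 280 bases the 5 segments were identical at 93.6% to 98.2% of positions. Trav14d-3-dv8 lies at chr14:53078452-53079045, Trav14n-3 at chr14:53370077-53370575 and Trav14-3 at chr14:53763173-53763694, all on the plus strand.

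Most V segment genes without counts shared their sequence with other segments. For each transcript, the share of its 50-base stretches that occur in no other V segment transcript was computed. The 22 Trbv segments, all of the Trbv V genes of the annotation, had between 98.8% and 100% of such stretches, so their counts refer to 1 gene each. The 66 Trav members of 108 Trav genes had a median of 55.8%, from 1.01% to 100%. The 37 Trav genes with 0 counts had a median of 0%, with 34 of them without any stretch of their own and the highest at 14.4%. The counts of Trav segments with a near-identical copy are therefore uncertain. Low uniqueness did not go with 0 counts throughout, since Trav6d-3 held 19 counts at 1.01%, while Tcrg-V7 held 0 at 100%. The part of shared sequence in the counts was not tested. The sources used here do not say how reads that match several segments were counted.

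**Figure D1:**
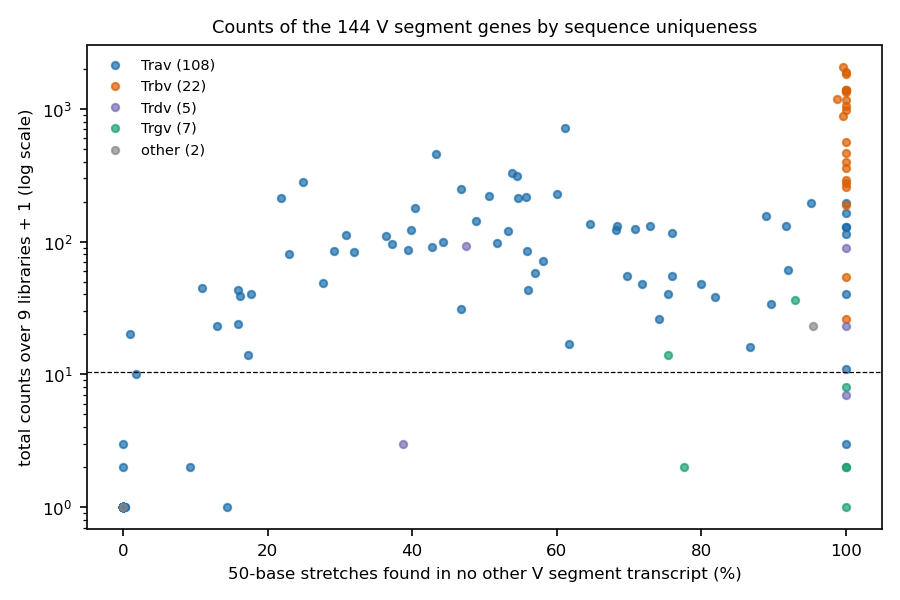
Total counts over the 9 libraries plus 1 (log scale) against the percentage of 50-base stretches found in no other V segment transcript, 1 point per V segment gene, coloured by locus, with the dashed line at the limit of 10 counts. Trbv genes sit at the right edge, and most genes without counts sit at 0%.

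The total counts, by which the members were chosen, are given here as a description. Of the 50 V segment genes under 10 counts, 39 held none and 11 held 1 to 9. Just inside the limit were Trav18 with 10 counts and Trav13n-3 and Tcrg-V1 with 13 each. Just outside were Trav13d-3 with 9, Tcrg-V4 with 7 and Trdv4 with 6. Trav11, the segment of the invariant alpha chain of natural killer T cells, held 2 counts and its copy Trav11d held 0. Neither of these 2 genes has a 50-base stretch of its own. Trav11n, a copy annotated as a pseudogene and named after its values were seen, held 15 counts. They were 4, 4 and 5 in Resting, 0, 1 and 0 in Th0_Ctrl and 0, 0 and 1 in Th0_TEPP libraries.

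The libraries held 2397304 to 5030643 counts in all. The members took 3608, 4786 and 5206 counts in Resting, 1224, 2256 and 1548 in Th0_Ctrl and 3610, 2037 and 3289 in Th0_TEPP libraries. They made up between 0.0324% and 0.123% of a library. Cd4 ran from 453 to 898 CPM (counts per 1000000 counts of the library, scaled by TMM factors) over the 9 libraries and Cd3e from 280 to 988 CPM, whereas Cd8a reached 5.86 CPM and Cd8b1 18.7 CPM. The libraries numbered 4 stood apart from the others in their Trav segments, as described below, so the counts of members are also given without them. Within the TEPP-46 group, Malat1, a nuclear RNA, was at 2521 CPM in library 1 and at 12240 and 12770 CPM in libraries 4 and 5. The part of that difference in the results was not tested.

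Receptor transcripts were lower in the activated DMSO cells than in resting cells and higher again with TEPP-46, with larger fold differences of the mean in the summed beta chain than in the summed alpha chain segments. The summed Trbv level was 547, 849 and 783 CPM in Resting libraries, 191, 341 and 256 CPM in Th0_Ctrl and 734, 573 and 806 CPM in Th0_TEPP. The Th0_Ctrl libraries lay below all others, while Resting and Th0_TEPP libraries overlapped. The group means were 726 ± 159 (SD, n = 3), 262 ± 75.1 and 704 ± 119 CPM, a 2.77-fold lower mean in Th0_Ctrl than in Resting and a 2.68-fold higher mean in Th0_TEPP than in Th0_Ctrl. In bulk RNA, fewer cells of a type and less receptor RNA per cell cannot be told apart.

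The summed Trav level was 167, 395 and 324 CPM in Resting, 103, 195 and 130 CPM in Th0_Ctrl and 249, 272 and 246 CPM in Th0_TEPP libraries. Here Resting library 1 lay within the range of Th0_Ctrl, and the Th0_TEPP libraries lay above all Th0_Ctrl libraries. The mean was 2.07-fold lower in Th0_Ctrl than in Resting and 1.79-fold higher in Th0_TEPP than in Th0_Ctrl. The sums were not tested, since the members were chosen with earlier results known.

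**Figure D2:**
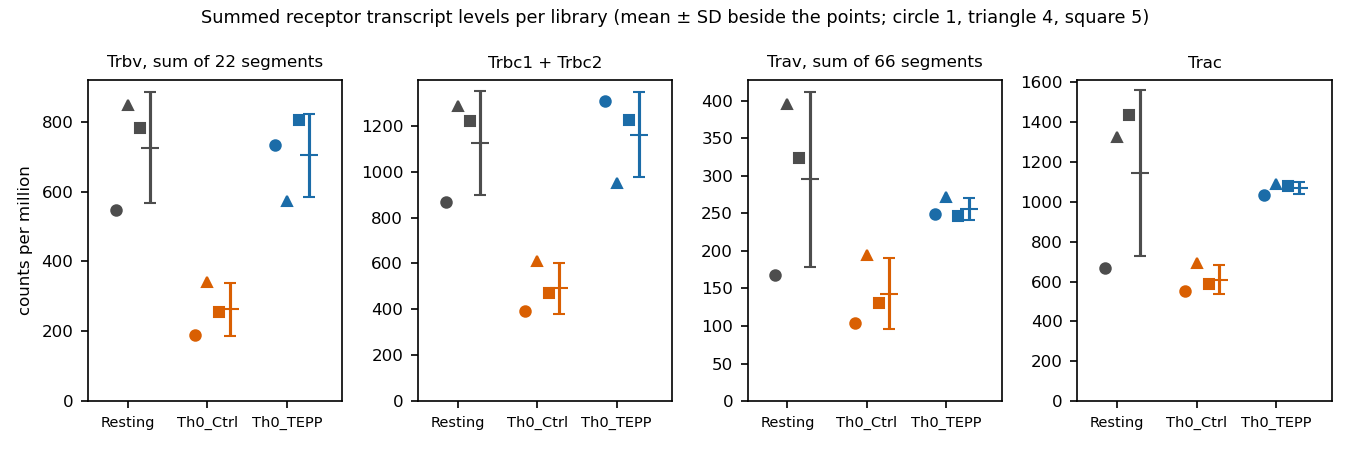
Summed levels of the Trbv segments, of Trbc1 and Trbc2, of the Trav segments and of Trac in CPM, 1 point per library by group, with the mean ± SD of 3 libraries beside the points. Th0_Ctrl libraries (orange) lie lowest in the Trbv panel at 191 to 341 CPM, and Resting library 1 reaches into the range of Th0_Ctrl in the Trav panel at 167 CPM.

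The constant segments, which are shared by all rearranged chains of a locus, moved in the same directions. Trbc2 was at 553, 890 and 788 CPM in Resting, 239, 382 and 285 CPM in Th0_Ctrl and 803, 600 and 747 CPM in Th0_TEPP libraries. It fell by 1.30 on the log2 scale in Th0_Ctrl against Resting (SE 0.258, adjusted p = 0.0048, edgeR quasi-likelihood test with Benjamini-Hochberg adjustment over 12536 genes) and rose by 1.25 in Th0_TEPP against Th0_Ctrl (adjusted p = 0.013). Trbc1 fell by 1.01 (adjusted p = 0.0094) and rose by 1.23 (adjusted p = 0.0095) in the same edgeR comparisons. They are a pair of genes with near-identical sequence. Trac, the alpha chain constant segment, fell by 0.91 (adjusted p = 0.031 by edgeR) and differed by 0.81 between Th0_TEPP and Th0_Ctrl with an adjusted p of 0.071. Of the 8 genes of the constant segment list, 6 were tested, of which 4 fell in the first comparison and 2 rose in the second.

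Of the signalling chains that carry the receptor, Cd247, the zeta chain, fell by 1.94 in Th0_Ctrl against Resting (adjusted p = 0.00094) and rose by 1.54 in Th0_TEPP against Th0_Ctrl (adjusted p = 0.0063, edgeR). Cd3e, the epsilon chain, differed by -0.63 in the first comparison with an adjusted p of 0.16 by edgeR and rose by 1.20 in the second (adjusted p = 0.033). Cd4 did not pass either test, at log2 differences of 0.10 and 0.35. Of the 7 genes of the list of signalling chains and co-receptors, 6 were tested, of which 1 fell in the first comparison and 2 rose in the second. Of 9 genes of V segment recombination, 7 were tested, of which 0 changed in the first comparison and 1 rose in the second. Rag1, a subunit of the recombinase, was at 0 in 8 of the 9 libraries.

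The Trbv sum moved further than its own constant segments. For every 100 counts of Trbc1 and Trbc2 there were 63.1, 65.9 and 64.2 Trbv counts in Resting, 48.7, 55.8 and 54.3 in Th0_Ctrl and 56.1, 60.2 and 65.9 in Th0_TEPP libraries. Th0_Ctrl lay below both other groups without overlap, though narrowly below Th0_TEPP library 1. Trav counts for every 100 Trac counts overlapped between all groups, at 22.5 to 29.7 in Resting, 18.7 to 28.2 in Th0_Ctrl and 22.8 to 25.0 in Th0_TEPP. Trbv counts per Trav count were 1.75 to 1.97 in Th0_Ctrl and 2.10 to 3.27 in the other 6 libraries.

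Of the 94 members, 60 passed the filter on low counts and were tested, 38 Trav, 20 Trbv and 2 Trdv segments. The 34 others, with 10 to 90 counts in all, were 28 Trav segments, Trbv21, Trbv30, Trdv5, both gamma segments and B230359F08Rik. Of the 60, 54 had a library past the count limit in every group. Another 1, Trdv2-2, passed only through the Resting group, so that it had to differ. Trav3-1, Trav8d-1, Trav9-4, Trav16d-dv11 and Trav13-4-dv7, named after their values were seen, also had no Th0_Ctrl library past the limit. Their lower level in Th0_Ctrl was thus favoured by the filter, and none of these Trav segments was called.

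In Th0_Ctrl against Resting, 21 of the 60 members fell and 0 rose (adjusted p below 0.05, edgeR quasi-likelihood test). Over all 12536 genes tested, 15.8% fell and 15.5% rose. The 21 were 16 of 20 Trbv, 4 of 38 Trav and 1 of 2 Trdv segments. The last is Trdv2-2, and 20 of the 59 others fell. The median log2 difference of the 20 Trbv segments was -1.57 and that of the 38 Trav segments -0.97, beside -0.04 over all genes tested. All 60 differences were below 0, a direction that the filter favoured for the members with no Th0_Ctrl library past the limit. The groups did not overlap for 28 of the 60, all lower in Th0_Ctrl. Beside them, 30% of all genes were lower and 29.2% higher without overlap. Among the 28 were Trdv2-2, Trav3-1, Trav16d-dv11 and Trav13-4-dv7, which had no such Th0_Ctrl library.

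In Th0_TEPP against Th0_Ctrl, 13 of the 60 rose and 0 fell, beside 9.72% of all genes that rose and 6.43% that fell. They were 12 Trbv segments and Trav14-3. The median log2 difference was 1.59 for Trbv and 0.80 for Trav, beside 0.04 over all genes. All 60 were above 0, again a direction that the filter favoured for the members with no Th0_Ctrl library past the limit. For 29 of the 60 the groups did not overlap, all higher with TEPP-46, beside 19.7% of all genes higher and 20% lower. Among the 29 were Trdv2-2, Trav3-1, Trav8d-1, Trav16d-dv11 and Trav13-4-dv7, which had no such Th0_Ctrl library. The 2 comparisons share the Th0_Ctrl libraries. In Th0_TEPP against Resting, 0 of the 60 passed the edgeR test, beside 10.3% of all genes in either direction. The 1 member with an unadjusted p below 0.05 in that comparison was Trdv2-2, which had to differ, since it passed the filter only through Resting. DESeq2 also called 0, and the median difference was -0.08. For 4 members, Trdv2-2 among them and all lower with TEPP-46, the groups did not overlap, beside 14.1% of all genes.

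Markers of B cells, which the purification does not keep, moved in the same directions. Of 6 such genes, 6 were tested, of which 4 fell in Th0_Ctrl against Resting and 5 rose in Th0_TEPP against Th0_Ctrl. Their summed level was 2513 to 3941 CPM in Resting, 229 to 254 CPM in Th0_Ctrl and 722 to 1176 CPM in Th0_TEPP libraries, and no B cell marker of the list was at 0 in a library. Of 10 genes of T cell identity, 3 fell and 3 rose in the same comparisons. The part of the cell mixture in the members' differences was not tested.

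These counts rest on few libraries. Without Th0_Ctrl library 1 or 5, 10 and 9 members fell against Resting, and without Resting library 4 or 5, 11 each. Between Th0_TEPP and Th0_Ctrl, 4 rose without Th0_Ctrl library 1 and 4 without Th0_Ctrl library 5, 8 without Th0_Ctrl library 4 and 6 without Th0_TEPP library 5. Without the 3 libraries numbered 4 the counts were 12, 4 and 0 in the 3 comparisons. The share of all genes called in these settings is not given here, so a loss particular to the members cannot be read from the counts.

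The Trbv13 family made up a large part of the beta chain. Trbv13-2 was at 88.1, 92.0 and 75.8 CPM in Resting, 13.2, 27.5 and 14.8 CPM in Th0_Ctrl and 80.5, 63.2 and 74.7 CPM in Th0_TEPP libraries. Every Th0_Ctrl library lay far below the other 6, and Resting and Th0_TEPP overlapped. Its difference with activation was -2.203 on the log2 scale (SE 0.292, adjusted p = 0.00086, edgeR), and it rose by 1.98 with TEPP-46 against DMSO (SE 0.291, adjusted p = 0.0036). Its 2 neighbours in the family followed, with Trbv13-3 down by 2.27 (adjusted p = 0.0014) and up by 1.72 (adjusted p = 0.011), and Trbv13-1 down by 1.66 (adjusted p = 0.0024) and up by 1.79 (adjusted p = 0.0050), all by edgeR. The rise of Trbv13-3 lost its call without Th0_Ctrl library 1 or 5 and without the libraries numbered 4, with an adjusted p of up to 0.063.

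Trbv16 showed the largest fall among the Trbv segments tested. It was at 52.5, 66.5 and 59.9 CPM in Resting, 4.89, 13.6 and 12.3 CPM in Th0_Ctrl and 43.8, 36.0 and 59.3 CPM in Th0_TEPP libraries. The Th0_Ctrl libraries did not overlap with any other. It fell by 2.53 (SE 0.369, adjusted p = 0.0012, edgeR) and rose by 2.17 (SE 0.367, adjusted p = 0.0063). Trbv16 and the Trbv12 segments are among the beta segments whose cells are deleted by endogenous retroviral superantigens in mouse strains with the class II molecule I-E, which C57BL/6 mice lack.

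Trbv12-2 was at 35.3, 50.0 and 42.4 CPM in Resting, 9.53, 17.2 and 14.3 CPM in Th0_Ctrl and 55.0, 31.8 and 55.1 CPM in Th0_TEPP libraries. It fell by 1.63 (adjusted p = 0.0042, edgeR) and rose by 1.79 (adjusted p = 0.0076), and again only the Th0_Ctrl libraries stood apart. Trbv5 fell by 1.81 (adjusted p = 0.0066, edgeR) and differed by 1.12 with TEPP-46 (adjusted p = 0.072). Trbv17 fell by 1.96 (adjusted p = 0.0075) and rose by 1.79 (adjusted p = 0.023) in the same edgeR fit, a rise that was lost under 5 of 18 alternatives, among them the loss of any 1 of the 3 Th0_Ctrl libraries. The falls of Trbv13-1, Trbv13-2, Trbv13-3, Trbv16, Trbv12-2, Trbv5 and Trbv17 kept their call under every alternative run.

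Other Trbv segments moved less. Trbv1, the segment farthest from the constant genes in the locus, was at 30.05, 59.7 and 55.1 CPM in Resting, 25.2, 30.1 and 24.9 CPM in Th0_Ctrl and 46.0, 44.3 and 48.3 CPM in Th0_TEPP libraries. Resting library 1 fell within the range of Th0_Ctrl. Trbv1 fell by 0.85 (adjusted p = 0.039, edgeR). That call was lost under 9 of 18 alternatives, with an adjusted p up to 0.17, among them the loss of Resting library 4 or 5 or of any 1 Th0_Ctrl library, total counts in place of TMM, and the replicate number as a block.

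Trbv2, Trbv19, Trbv20 and Trbv26 fell by 1.07 to 1.33 on the log2 scale with adjusted p-values of 0.013 to 0.046 (edgeR). Of these, Trbv2, Trbv20 and Trbv26 rose by 1.39 to 1.53 with TEPP-46, with adjusted p-values of 0.012 to 0.028. Every call of these 4 segments was lost without Th0_Ctrl library 1 or 5, with an adjusted p up to 0.16. Trbv12-1, Trbv15 and Trbv29, named after their values were seen, also passed both tests, with falls of 1.56 to 2.12.

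Trbv31, the inverted segment, fell by 1.15 (adjusted p = 0.021, edgeR) and differed by 0.95 with TEPP-46 (adjusted p = 0.067). Its call was lost without Resting library 4 or 5 or Th0_Ctrl library 1 or 5. Trbv3 differed by -0.80 (adjusted p = 0.12) and 1.15 (adjusted p = 0.055) in the edgeR fit. Trbv23, named here after its values were seen, differed by -0.57 (adjusted p = 0.35) and 0.52 (adjusted p = 0.44). Of the 20 tested Trbv segments, the other 2 that did not fall past the threshold were Trbv4 and Trbv14, also named after their values were seen, at -1.59 (adjusted p = 0.055) and -1.21 (adjusted p = 0.15, edgeR).

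Of the alpha chain segments, 4 fell with activation. Trav14-3 was at 13.2, 17.1 and 19.2 CPM in Resting, 6.11, 8.13 and 8.28 CPM in Th0_Ctrl and 18.1, 14.2 and 14.5 CPM in Th0_TEPP libraries. The Th0_Ctrl libraries lay below the other 6, and the fall was 1.13 (SE 0.306, adjusted p = 0.019, edgeR), with a rise of 1.06 with TEPP-46 (adjusted p = 0.043). The fall of Trav14-3 was lost without any 1 of the 3 Th0_Ctrl libraries and without Resting library 4 or 5, with an adjusted p up to 0.089, and its rise under 12 of 17 alternatives, the replicate block among them, with an adjusted p up to 0.16. Its copies fell as well in edgeR, Trav14d-3-dv8 by 1.25 (adjusted p = 0.040) and Trav14n-3 by 1.60 (adjusted p = 0.042). Both calls were lost without Resting library 4 or 5 and without Th0_Ctrl library 1 or 5, among others. The fourth was Trav7d-4, named after its values were seen, at a fall of 1.43 (adjusted p = 0.042, edgeR). Trav1, the segment of the invariant chain of mucosal-associated invariant T cells, differed by -0.40 (adjusted p = 0.63).

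The delta and gamma segments, which belong to a separate T cell lineage that mostly lacks CD4, were rare. The summed Trdv level was 7.81, 9.73 and 10.99 CPM in Resting, 3.42, 2.39 and 1.26 CPM in Th0_Ctrl and 5.20, 6.28 and 4.19 CPM in Th0_TEPP libraries, with a mean 4.04-fold lower in Th0_Ctrl than in Resting. Trdv2-2 alone held 5.19 of the mean 9.51 CPM in Resting. Trdv2-2 was at 5.61, 4.996 and 4.95 CPM in Resting, 0, 0.956 and 0.251 CPM in Th0_Ctrl and 1.64, 2.09 and 1.93 CPM in Th0_TEPP libraries. The 3 groups did not overlap. The Th0_Ctrl libraries held 0, 4 and 1 of its counts, and since it passed the filter through the Resting group alone, its difference from Resting is given with no test. It differed by 2.12 with TEPP-46 against DMSO (adjusted p = 0.088, edgeR). Only 47.4% of its 50-base stretches are absent from other V segments, the others being shared with Trdv2-1. Trdv1 was at 2.00 to 5.17 CPM in Resting, 0.502 to 3.18 CPM in Th0_Ctrl and 2.09 to 3.01 CPM in Th0_TEPP. It differed by -1.17 (adjusted p = 0.20) and 0.67 (adjusted p = 0.53, edgeR). Trdv5 held 22 counts, Trgv2 35 and Tcrg-V1 13 over all libraries, too few to be tested. The delta constant segment Trdc was at 8.41, 25.5 and 23.7 CPM in Resting and fell by 1.59 in Th0_Ctrl (adjusted p = 0.021, edgeR). Zbtb16, a transcription factor of innate-like T cells, was at 15.8, 4.21 and 5.82 CPM in Resting and below 1 CPM in the other 6 libraries. The summed level of 6 markers of gamma delta T cells was 13.4 to 44.2 CPM in Resting, 9.54 to 11.2 CPM in Th0_Ctrl and 16.2 to 37.7 CPM in Th0_TEPP libraries. The part of such cells in the V segment results was not tested.

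Shares within a locus take out the common fall. Each segment's counts were divided by its exonic length and expressed as a percentage of the locus. Trbv shares were uneven, with a mean over the 9 libraries of 11.6% for Trbv13-2 and 0.138% for Trbv21, and 8 of the 22 segments summed to 62.0%. After Trbv13-2 came Trbv3 with 9.38%, Trbv13-1 with 7.74%, Trbv1 with 7.69%, Trbv19 with 6.94%, Trbv16 with 6.28%, Trbv12-2 with 6.19% and Trbv20 with 6.14%. With a SD over libraries of 3.39 for Trbv13-2 and 2.35 for Trbv3, neighbours in this order did not differ beyond their spread. Trav shares were led by Trav14d-3-dv8 with 7.73%, Trav14-3 with 5.94%, Trav14n-3 with 4.11% and Trav14-2 with 3.84%. Next came Trav4-4-dv10, Trav7n-4, Trav13-1 and Trav7-4 between 3.38% and 2.99%. The top 8 of the 66 Trav segments summed to 34.5%. Since the loci hold 66 and 22 segments, the sums of 8 do not show which locus was more even.

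The effective number of segments, the inverse Simpson index of the shares, overlapped between all groups when counts were scaled by length. It was 14.2 ± 1.76 (SD, n = 3) for Trbv in Resting, 14.3 ± 0.651 in Th0_Ctrl and 14.7 ± 0.635 in Th0_TEPP libraries. For Trav it was 32.2 ± 1.94, 33.9 ± 3.66 and 31.7 ± 0.57. Computed from counts not scaled by length, the Trbv number was 12.7, 13.4 and 13.99 in Th0_Ctrl libraries and 14.4, 14.3 and 15.3 in Th0_TEPP libraries, which then did not overlap.

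Trbv16 was the one segment whose share passed the threshold in edgeR. It made up 9.55%, 7.84% and 7.67% of the Trbv counts in Resting, 2.66%, 4.12% and 4.94% in Th0_Ctrl and 6.05%, 6.31% and 7.39% in Th0_TEPP libraries. The 3 groups did not overlap. Relative to the summed Trbv counts it fell by 1.13 on the log2 scale in Th0_Ctrl against Resting (SE 0.415, adjusted p = 0.022, edgeR with the Trbv sum as library size), and 0 of the other 19 tested Trbv segments passed. On the same scale 2.19% of all genes fell and 66.5% passed in either direction, since a gene that kept its level counts as higher where the Trbv sum is lower. Adjustment over all genes therefore raised p little on this scale, from an unadjusted 0.0127, and the call depends on it. The call was lost without Resting library 4 (adjusted p = 0.054), Resting library 5 (adjusted p = 0.053) or Th0_Ctrl library 1 (adjusted p = 0.072), and it held without the 3 libraries numbered 4 (adjusted p = 0.044). DESeq2 called 2 Trbv shares, Trbv16 and Trbv13-2. In Th0_TEPP against Th0_Ctrl, Trbv16 differed by 0.78 (adjusted p = 0.10, edgeR).

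No Trbv share passed in Th0_TEPP against Th0_Ctrl or against Resting, with 0 at an unadjusted p below 0.05 in edgeR and 0 calls in DESeq2, beside 65.5% and 6.5% of all genes called on that scale. No Trav share passed in any of the 3 comparisons, again with 0 at an unadjusted p below 0.05 and 0 in DESeq2, beside 34.4%, 25.4% and 6.33% of all genes. The median SE of a share difference was 0.42 for Trbv and 0.78 for Trav in Th0_Ctrl against Resting, so that small shifts could not pass this test. The dispersion behind these SEs was estimated over all genes with the locus sum as library size. For Trbv13-2 the SE in that comparison was 0.394 for the share and 0.292 for the level. The part of depth in the SEs was not tested.

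Segments other than Trbv16 had shares that did not overlap between groups without passing the test. Trbv3 made up 4.72%, 8.46% and 7.46% in Resting, 11.5%, 11.3% and 12.4% in Th0_Ctrl and 9.69%, 9.44% and 9.35% in Th0_TEPP libraries, and the 3 groups were apart. Its share differed by 0.73 on the log2 scale in Th0_Ctrl against Resting with an adjusted p of 0.099 by edgeR. Trbv1 made up 5.22%, 6.72% and 6.74%, then 13.1%, 8.69% and 9.53%, then 6.06%, 7.42% and 5.75%, with Th0_Ctrl above both other groups (0.69, adjusted p = 0.12). Trbv23 made up 1.09%, 1.42% and 1.87%, then 4.43%, 2.402% and 2.31%, then 1.69%, 1.09% and 1.57%, again with Th0_Ctrl highest (0.996, adjusted p = 0.11, edgeR).

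In the other direction, Trbv13-2 made up 18.8%, 12.7% and 11.4% in Resting, 8.42%, 9.72% and 6.97% in Th0_Ctrl and 13.01%, 12.97% and 10.9% in Th0_TEPP libraries. Th0_Ctrl lay below both groups, and the difference from Resting was -0.82 (adjusted p = 0.073, edgeR). Trbv13-3 made up 5.76%, 6.42% and 7.04% in Resting, 4.21%, 4.06% and 3.19% in Th0_Ctrl and 3.81%, 5.24% and 4.85% in Th0_TEPP libraries. Here both activated groups lay below Resting and overlapped with each other.

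In all, 10 of 22 Trbv shares did not overlap between Th0_Ctrl and Resting, 5 higher (Trbv1, Trbv3, Trbv23, Trbv26, Trbv31) and 5 lower (Trbv13-2, Trbv13-3, Trbv16, Trbv17, Trbv29), beside 72.3% of all genes on that scale, of which 69.4% higher and 2.84% lower. Between Th0_TEPP and Th0_Ctrl, 4 were higher (Trbv13-1, Trbv13-2, Trbv16, Trbv17) and 5 lower (Trbv1, Trbv3, Trbv19, Trbv23, Trbv31), beside 1.13% and 69.1% of all genes. Between Th0_TEPP and Resting, 4 were higher (Trbv2, Trbv3, Trbv13-1, Trbv26) and 3 lower (Trbv5, Trbv13-3, Trbv16), beside 10.6% in each direction. Of 66 Trav shares, 4, 1 and 1 did not overlap in the same 3 comparisons, beside 44.0%, 48.5% and 15.0% of all genes. These were Trav8-1, Trav6-2, Trav10d and Trav16n in the first, Trav17 in the second and Trav16n in the third. The segments outside the rule for named genes are listed here after their values were seen.

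**Figure D3:**
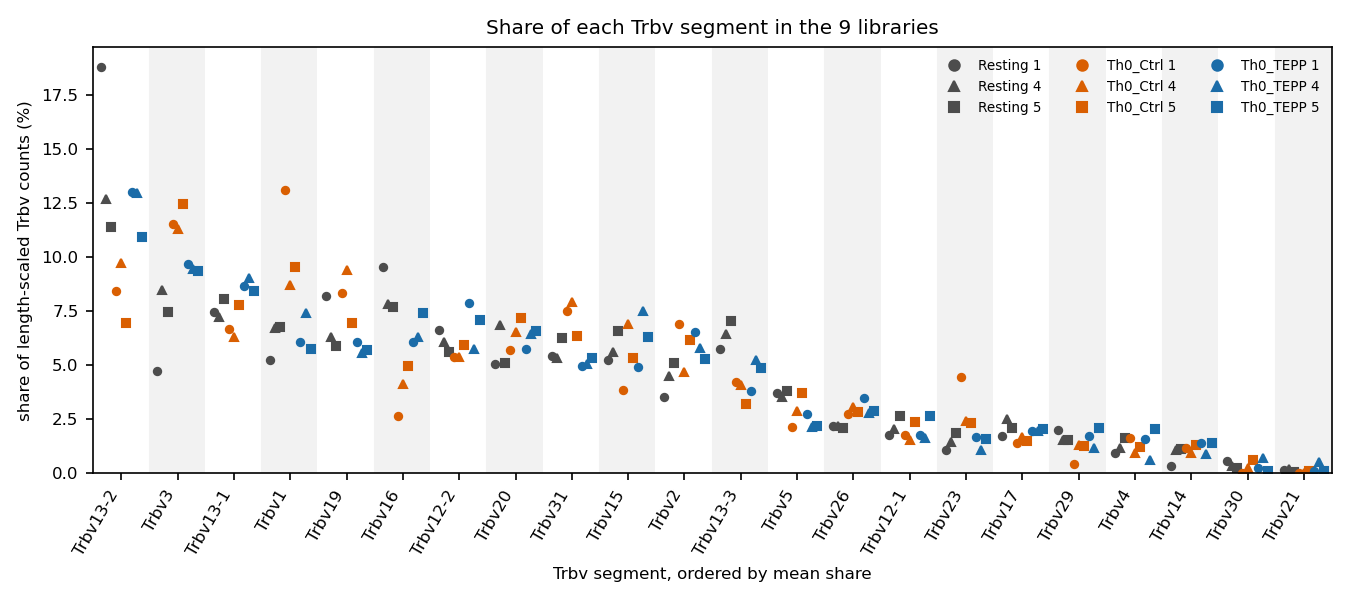
Share of each of the 22 Trbv segments among the length-scaled Trbv counts (%), ordered by mean share, 1 point per library, coloured by group and shaped by library number. Th0_Ctrl (orange) is lowest for Trbv16 at 2.66% to 4.94% and highest for Trbv3 at 11.3% to 12.4%.

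Whole profiles were compared by their overlap, the sum over segments of the smaller of the 2 shares. For Trbv, libraries of 1 group overlapped by 86.5% to 94.2%. Resting and Th0_Ctrl libraries overlapped by 73.7% to 86.3%, with a median of 80.2%, Th0_Ctrl and Th0_TEPP by 81.1% to 87.2%, with a median of 86.2%, and Resting and Th0_TEPP by 83.7% to 92.6%, with a median of 90%. The pairs of Resting with Th0_Ctrl thus lay below all pairs within a group. Resting library 1, with the highest Trbv13-2 share, had the lowest of these values.

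Trav profiles set the libraries numbered 4 apart in every group, without a split between numbers 1 and 5 or by group. A pair with 1 library numbered 4 overlapped by 62.1% to 73.1% over 18 such pairs, also when both came from the same group (62.1% to 72.7%, 6 pairs). The 15 pairs without a library numbered 4 overlapped by 79.6% to 87.4%, and the 3 pairs of libraries numbered 4 from different groups by 77.7% to 85.6%. The chi-square statistic per degree of freedom, which is near 1 when 2 libraries differ by counting error alone, was 2.405 to 4.28 for pairs with 1 library numbered 4, 1.04 to 1.41 for pairs with none and 1.18 to 2.39 for pairs with 2. Numbers 1 and 5 thus differed by little more than counting error across treatments, and number 4 differed from both in every group. For Trbv, pairs with 1 library numbered 4 overlapped by 79.2% to 94.2% and pairs with none by 73.7% to 93.2%, with no such split.

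**Figure D4:**
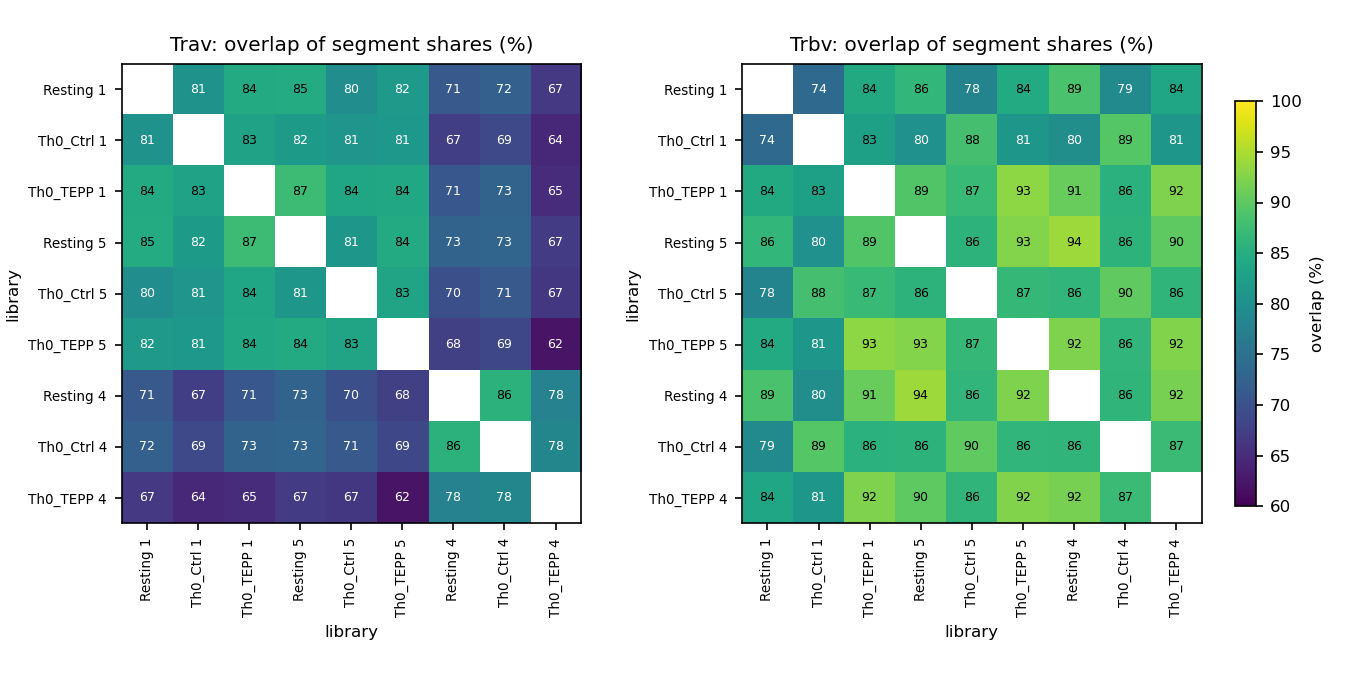
Overlap of segment shares (%) between each pair of the 9 libraries for Trav (left) and Trbv (right), libraries ordered by number. In the Trav panel the 3 libraries numbered 4 share 62.1% to 73.1% with the other 6 and 77.7% to 85.6% among themselves, and the Trbv panel shows no block by number.

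The difference ran along the locus. The 35 members in the 3′ unlettered block of the Trav locus, chr14:53390635-53977678, made up 68.7%, 71.5% and 73.1% of the Trav counts in the Resting, Th0_Ctrl and Th0_TEPP libraries numbered 4, and 48.0% to 51.7% in the other 6 libraries. The 13 members of the d copies made up 10.1% to 12.95% in number 4 and 22.3% to 25.9% in the others. The 7 members of the 5′ unlettered block made up 3.93% to 5.74% against 9.76% to 14.8%. The 11 members of the n copies overlapped, at 9.97% to 14.4% against 12.5% to 16.8%.

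**Figure D5:**
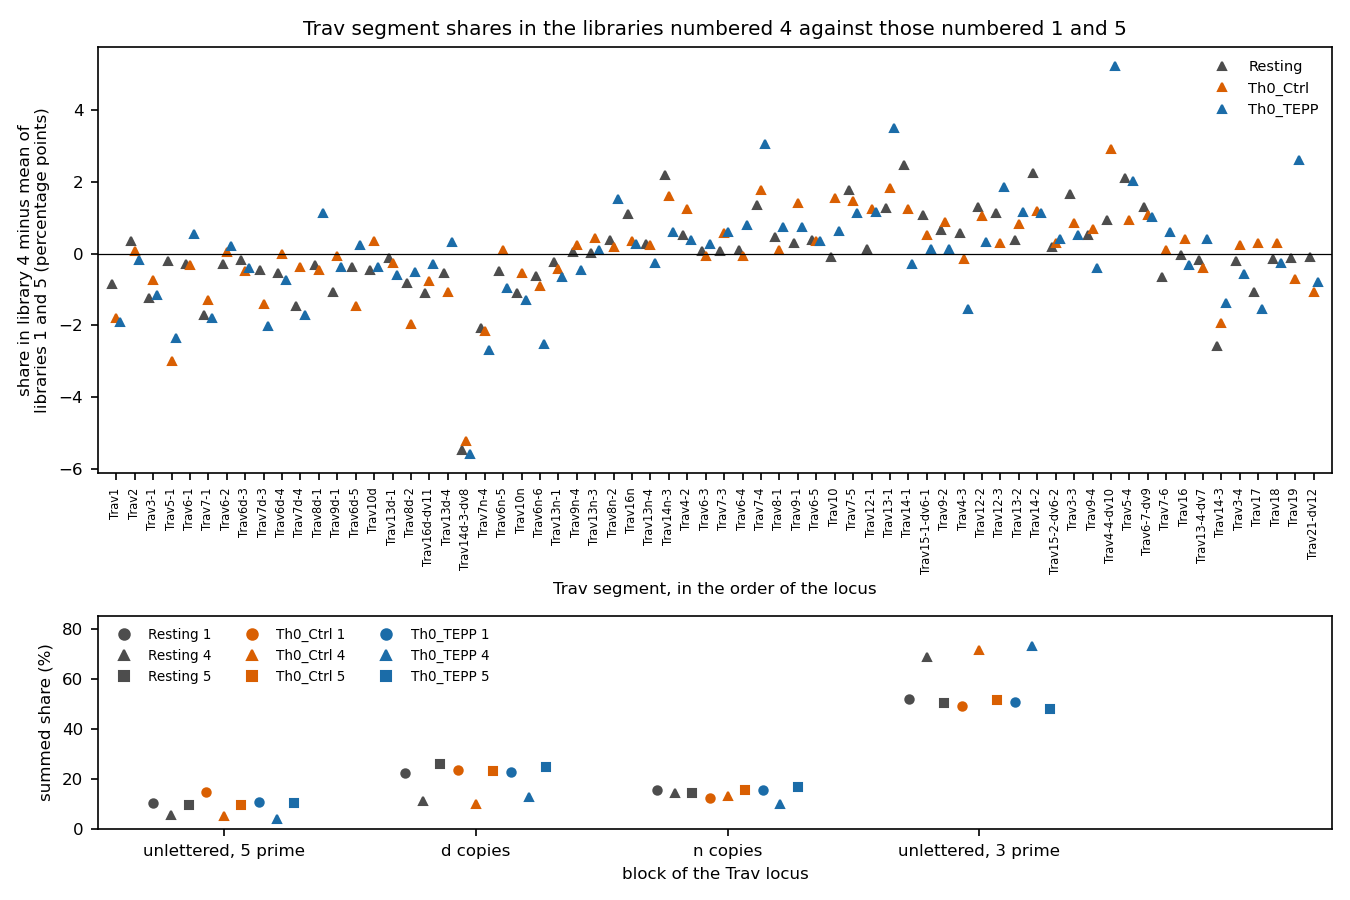
Above, the share of each Trav segment in the library numbered 4 minus the mean of libraries 1 and 5 of the same group, in percentage points, in the order of the locus and coloured by group. Below, summed shares (%) of the 4 blocks of the locus, 1 point per library, where the libraries numbered 4 (triangles) hold 68.7% to 73.1% in the 3′ unlettered block and 10.1% to 12.95% in the d copies.

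Single segments showed it in each group. Trav14d-3-dv8 made up 9.12%, 4.37% and 10.6% in Resting, 10.01%, 3.77% and 7.97% in Th0_Ctrl and 9.85%, 4.18% and 9.68% in Th0_TEPP libraries. Library 4 was lowest each time. Trav4-4-dv10 made up 3.198%, 3.799% and 2.503%, then 2.28%, 5.29% and 2.47%, then 2.49%, 7.10% and 1.27%, with library 4 highest each time. Trav13-1 made up 2.37%, 3.75% and 2.57%, then 2.48%, 4.18% and 2.24%, then 2.84%, 5.76% and 1.69%, again with library 4 highest. Within the Trav14 family, whose ends differ by a few bases as printed above, Trav14n-3 and Trav14-2 were highest and Trav14-3 and Trav14d-3-dv8 lowest in number 4 in all 3 groups.

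In all, 19 of 66 Trav segments had their highest share in library 4 in each of the 3 groups, 16 of them in the 3′ unlettered block and 3 among the n copies, beside 0.207% of all genes taken relative to the Trav sum. Another 10 had their lowest share there in each group, 5 of them d copies, beside 32.2% of all genes. The Trav sum itself was highest in library 4 in each group, so a gene that kept its level counts as lowest there. The 0.207% and 32.2% thus follow from the scale and do not measure how far the segments stand out. For library 1 these counts were 2 and 2, beside 28% and 0.287% of all genes, and for library 5 they were 6 and 2, beside 0.854% and 0.207%. For Trbv, 0 of 22 segments were highest and 0 were lowest in library 4 in each group, beside 0.463% and 9.62% of all genes. In levels, 16 of the 60 tested members were highest in library 4 in each group, and 0 were lowest, beside 3.0% and 3.5% of all genes.

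Segments with little shared sequence were looked at on their own. Of the 10 Trav members with at least 90% of their 50-base stretches unique, 0 were highest and 1, Trav1, was lowest in library 4 in each group. Trav1 held 16, 13 and 22 counts in Resting, 16, 9 and 10 in Th0_Ctrl and 25, 3 and 14 in Th0_TEPP libraries, and made up 0.849% of the Trav counts in the libraries numbered 4 on average and 2.38% in the others. Trav5-1 averaged 0.754% against 2.604% and was lowest in library 4 in the 2 activated groups only. Trav15-1-dv6-1 averaged 1.01% against 0.442% and was highest in library 4 in 2 of the 3 groups. Of the 29 Trav segments that were highest or lowest in library 4 in every group, 28 had under 90% of such stretches. The 10 held 10 to 194 counts in all, and their difference from the other segments was not tested. Except Trav1, these segments are described after their values were seen.

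When all 12536 genes were ranked by the margin of library 4 above libraries 1 and 5 in every group, 6 of the first 20 were Trav segments (Trav7-4, Trav4-4-dv10, Trav5-4, Trav13-1, Trav12-3 and Trav6-7-dv9). The first gene was Ms4a1, a B cell gene. The B cell list as a whole was mixed. Of its 6 markers, library 4 was highest for 4 and lowest for 2 in Resting, highest for 3 and lowest for 2 in Th0_Ctrl, and highest for 5 in Th0_TEPP. The part of B cell RNA in the Trav profile was not tested. No label says what the number stands for.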

How the data were processed

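RNA from 9 libraries was measured by sequencing. Whole-number read counts without normalization, in 1 table headed by sample titles, were deposited. Per the submitters' processing notes, GRCm38 was the build and DESeq2 a tool. The sources used here name no aligner or counting program, nor the handling of reads that match several genes or the strand setting. Symbols, gene types, coordinates (counted from 1) and transcript sequences are those of GENCODE M21.

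Genes passing filterByExpr (minimum count 10, minimum total 15) were fitted with TMM factors over all 3 groups in edgeR 4.0.16 (glmQLFit, glmQLFTest; R version 4.3.3). Each test was two-sided, with Benjamini-Hochberg adjustment over 12536 genes and a threshold of 0.05. For shares, the summed Trav or Trbv counts served as library size. CPM use TMM-scaled library sizes, and a floor of 3 counts equals 0.601 to 1.26 CPM, which covers counting error only. Values are mean ± SD over 3 libraries, and the common dispersion was 0.1086. The scripts were tested on simulated data. Alternatives were RLE factors, total counts, DESeq2 1.42.0, other filters, a replicate block, only the groups compared, d and n copies summed and each library left out. Leaving out the 3 libraries numbered 4 was added after seeing the data.

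The members and gene lists were chosen with earlier results of these data known. Named segments are the 8 with the highest mean share per locus, up to 8 called per comparison by adjusted p, Trav1, Trav11, Trav11d, Trbv31, every gamma and delta member and listed constant, signalling and recombination genes.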

Additional observations from a re-analysis of the deposited data

Results flagged for a closer look

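Counts were also present for V segments that the annotation calls pseudogenes and that no comparison above used. Of 34 such genes, 14 held counts and 2 held at least 3 counts in every library. Trbv24 held 169 counts over the 9 libraries, from 8 to 28 per library. Trav8-2 held 67 counts, from 3 to 13 per library.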

How the results depend on the processing

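Counts of members called moved by over 1.5 times when libraries were left out. No share of all genes is given beside these counts, so they do not show whether the members lost more calls than other genes. With each library left out in turn, 9 to 27 members fell in Th0_Ctrl against Resting, 4 to 17 rose in Th0_TEPP against Th0_Ctrl and 0 passed in Th0_TEPP against Resting. The number of Trbv shares called in Th0_Ctrl against Resting was 0 to 1, and 2 with DESeq2. Without the 3 libraries numbered 4, 12, 4 and 0 members were called, and the log2 ratio of the summed Trbv level of Th0_TEPP to Th0_Ctrl was 1.79 in place of 1.42. With d and n copies summed, the effective number of Trav segments was 15.8 in Resting, 18.6 in Th0_Ctrl and 16.3 in Th0_TEPP, because fewer segments enter. A minimum of 30 counts gave 30.4 for Trav in Th0_TEPP, and raw counts gave 13.4 for Trbv in Th0_Ctrl, whose libraries then lay below those of Th0_TEPP. The cause of the other changes was not tested.

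Scaling moved the median of all genes by over 0.1. In Th0_Ctrl against Resting that median was -0.04 with TMM factors and 0.07 with total counts, and in Th0_TEPP against Th0_Ctrl 0.04 and -0.09. With total counts the members' medians were -1.05 and 0.83, 16 fell and 12 rose, and 59 of 60 differences stayed above 0 in the second comparison. There, over all genes, 1219 rose and 806 fell with TMM factors, and 924 and 1183 with total counts. In the first comparison 1938 genes rose and 1975 fell with TMM factors, and 2233 and 1604 with total counts. DESeq2 called 22 members lower in the first comparison, 18 higher in the second and 0 in the third. Of all 12536 genes it called 2219 lower in the first, 1667 higher in the second and 2090 in either direction in the third.

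With the replicate number as a block, 19, 11 and 0 members and 1, 0 and 0 Trbv shares were called in the 3 comparisons. The share of all genes and the number of Trav shares called with the block are not given. Deviations from the group means correlated by -0.12 to 0.089 between libraries of the same number over all genes tested, with 0 of 9 pairs above 0.1, and 10 of 18 cases correlated best with their own number, so over all genes the numbers do not pair the libraries. For Trav shares the same correlation was 0.40 to 0.80, with 9 of 9 pairs above 0.1 and 15 of 18 cases best with their own number.

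Few counts limit the Trav results: libraries held 423 to 1502 Trav counts, and 28 of 66 Trav members were not tested.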
